A study of Mus musculus with 2 samples.

Results

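The genes described here are 10 microtubule-binding genes, Clasp1, Clasp2, Dctn1, Nav1, Nav2, Nav3, Macf1, Map2, Map4 and Mapt, 6 of which have an exon of 30 nucleotides or less that was measured here. They were chosen by name, in a list drawn up with the inclusion changes of these same 2 libraries known, so delta PSI chose the members and their changes are given as descriptions without a test. Within each gene's span and on its strand, SpliceTrap held 475 exon trios (an exon with its upstream and downstream neighbours), of which 419 reached 20 reads in both libraries. These gave 325 distinct middle exons of 367 in the 10 genes, against 113761 measured exons in the whole data. The idea of neural microexons does not hold for all 10. Map2, Map4 and Mapt have no middle exon of 30 nucleotides or less in the exon database, and none of the 51 trios of Nav2 passed, the deepest of them holding 2 reads, which leaves 9 measured genes.

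The study compared 2 RNA-seq libraries of N2A cells, a mouse neuroblastoma line, to ask which exons respond when PTBP1 is depleted. One library came from cells transfected with a control shRNA (shControl) and the other from cells transfected with an shRNA against Ptbp1 (shPtbp1), both by lipid transfection of the plasmid and both collected on day 3. There is 1 library per condition from 1 line, so no value has a replicate check, and the intervals below cover counting error and compare these libraries, not the conditions. Libraries were poly(A)-selected and strand-specific, with paired reads of 100 bases. The reads on distinct exon junctions summed to 74291065 in the shControl library and 58217901 in the shPtbp1 library. Ptbp1 itself had 40588 junction reads in the shControl library and 10676 in the shPtbp1 library, a log2 ratio of -1.57 after scaling to the library totals, while its neuronal homolog Ptbp2 had 5683 and 10738, a log2 ratio of 1.27. Of 14 markers of neuroblastoma and neural crest neurons, 11 reached 100 reads in both libraries, with sums over the 14 of 2066 and 2923 reads per 1000000 library reads (RPM), or 1646 and 1575 without Ret. Of these 11, 2 were higher and 2 lower by 1.5-fold or more. The summed markers of fibroblasts, of glia, of blood and of epithelium were each below 1 RPM in both libraries, and the neurofilament genes Nefl and Nefm had at most 17 reads. The blood value is that of Ptprc alone, since Cd68 and Hbb-b1 were not found in the expression data.

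Microtubules are polymers of tubulin whose growing plus ends are decorated by tracking proteins and whose lattice is stabilised along axons and dendrites by structural microtubule-associated proteins. CLASP1 and CLASP2 promote rescue and stabilise plus ends, the navigators NAV1, NAV2 and NAV3 bind microtubules and are linked to neurite guidance, dynactin 1 (p150Glued) carries dynein to microtubule ends, MACF1 is a giant spectraplakin that joins actin to microtubules, and MAP2, MAP4 and tau share a repeat domain that binds the lattice. PTBP1 is an RNA-binding protein that recognises pyrimidine-rich sequence and commonly represses exons lying next to it, and its level falls as neurons differentiate, when many very short neural exons become included.

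The sequences that the results turn on are printed from the NCBIM37 (mm9) assembly, with the exon in capitals and its flanks in lower case, 50 nucleotides upstream and 10 downstream. The 2 Dctn1 exons are shown for the size of their change, and the CLASP and navigator exons as pairs of equal length in related genes.
Dctn1, 21-nucleotide exon, chr6:83137758-83137778, plus strand: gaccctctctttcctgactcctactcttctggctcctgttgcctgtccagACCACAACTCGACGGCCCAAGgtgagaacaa
Dctn1, 15-nucleotide exon, chr6:83147313-83147327, plus strand: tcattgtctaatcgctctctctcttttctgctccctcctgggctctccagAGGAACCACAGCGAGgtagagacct
Clasp1, 27-nucleotide exon, chr1:120419898-120419924, plus strand: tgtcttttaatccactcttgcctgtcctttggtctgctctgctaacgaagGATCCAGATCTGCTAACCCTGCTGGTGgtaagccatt
Clasp2, 27-nucleotide exon, chr9:113774204-113774230, plus strand: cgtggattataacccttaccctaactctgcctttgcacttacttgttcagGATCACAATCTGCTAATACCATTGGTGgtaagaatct
Clasp1, 24-nucleotide exon, chr1:120438252-120438275, plus strand: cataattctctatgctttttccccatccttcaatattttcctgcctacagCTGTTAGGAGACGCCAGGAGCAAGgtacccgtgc
Clasp2, 24-nucleotide exon, chr9:113787868-113787891, plus strand: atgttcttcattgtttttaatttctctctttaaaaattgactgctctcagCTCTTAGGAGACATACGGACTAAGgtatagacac
Nav1, 24-nucleotide exon, chr1:137360492-137360515, minus strand: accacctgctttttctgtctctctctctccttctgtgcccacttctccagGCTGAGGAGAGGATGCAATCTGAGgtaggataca
Nav3, 24-nucleotide exon, chr10:109184250-109184273, minus strand: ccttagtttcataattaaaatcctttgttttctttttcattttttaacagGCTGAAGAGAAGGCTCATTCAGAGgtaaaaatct

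Inclusion is given as percent spliced in (PSI), the share of transcripts with the exon as SpliceTrap estimated it after its model correction, and delta PSI is the shPtbp1 value minus the shControl value. An exon is said here to have risen or fallen when its delta PSI reached 5 points in that direction, and to be variable when its PSI lay between 5 and 95 in at least 1 library. Of the 325 measured exons, 36 were variable, and 20 of these rose (55.6%), against 27.0% of all 8798 variable exons in the data. Another 8 fell (22.2%), against 28.1% of all variable exons. The median delta PSI of the 36 was 7.05 points, against -0.60 over all variable exons, but it was 0.9 when each exon was averaged over its trios and 1.6 when inclusion was taken from all database junctions. The other 289 exons were not variable, 280 of them above a PSI of 95 and 9 below a PSI of 5 in both libraries.

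Microexons made up 12 of the 20 rises. Of 17 measured microexons, meaning exons of 30 nucleotides or less, 12 rose (70.6%), against 20.5% of all 991 microexons measured. None of the 17 fell, against 3.63% of all microexons. The median delta PSI of the 17 was 14.7 points and that of all microexons was 0. As many as 16 of the 17 have a length divisible by 3, against 58.3% of all microexons, and 15 lie inside annotated coding sequence. The smallest rise was 5.2 points and the smallest fall 5.6 points, while the 8 variable exons between them moved by -3.2 to 3.6 points. Because the list was drawn up from this contrast, these counts describe the genes and support no statement about microtubule genes at large.

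**Figure D1:**
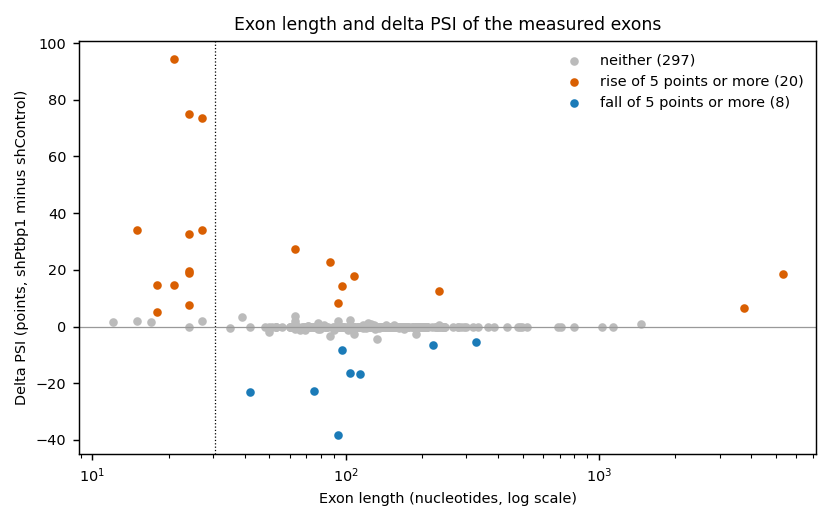
Exon length in nucleotides (log scale) against delta PSI in points for the 325 measured exons of the 9 genes, 1 point per exon, coloured by a change of 5 points or more. All points left of the dotted line (30 nucleotides) lie at or above 0, and the 8 falls lie among exons of 42 to 327 nucleotides.

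SpliceTrap scores an exon against 1 pair of neighbours, and in genes where short exons follow one another that pair can itself be rarely used. A second measure was therefore read from the junction reads, in which the larger of the summed reads entering or leaving the exon is set against the reads on all database junctions that span it. The larger side was taken because 87.1% of inclusion reads of microexons fell on the junction at the lower coordinate, compared with 50.1% for exons longer than 100 nucleotides. By this measure the 95% Newcombe interval of the difference lay above 0 for 12 of the 20 rises, 7 of them microexons, and below 0 for 4 of the 8 falls. The 20 include the first 24-nucleotide and the 18-nucleotide exons of Clasp2, which have no usable value by this measure, as described below. This measure was chosen after seeing the data, and "junction inclusion" below refers to it. It covers junctions of the exon database only, and some are missing. For 13 of the 33 exons named below, a neighbouring exon had under 50% as many shControl reads on the side facing the exon as on its far side.

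**Figure D2:**
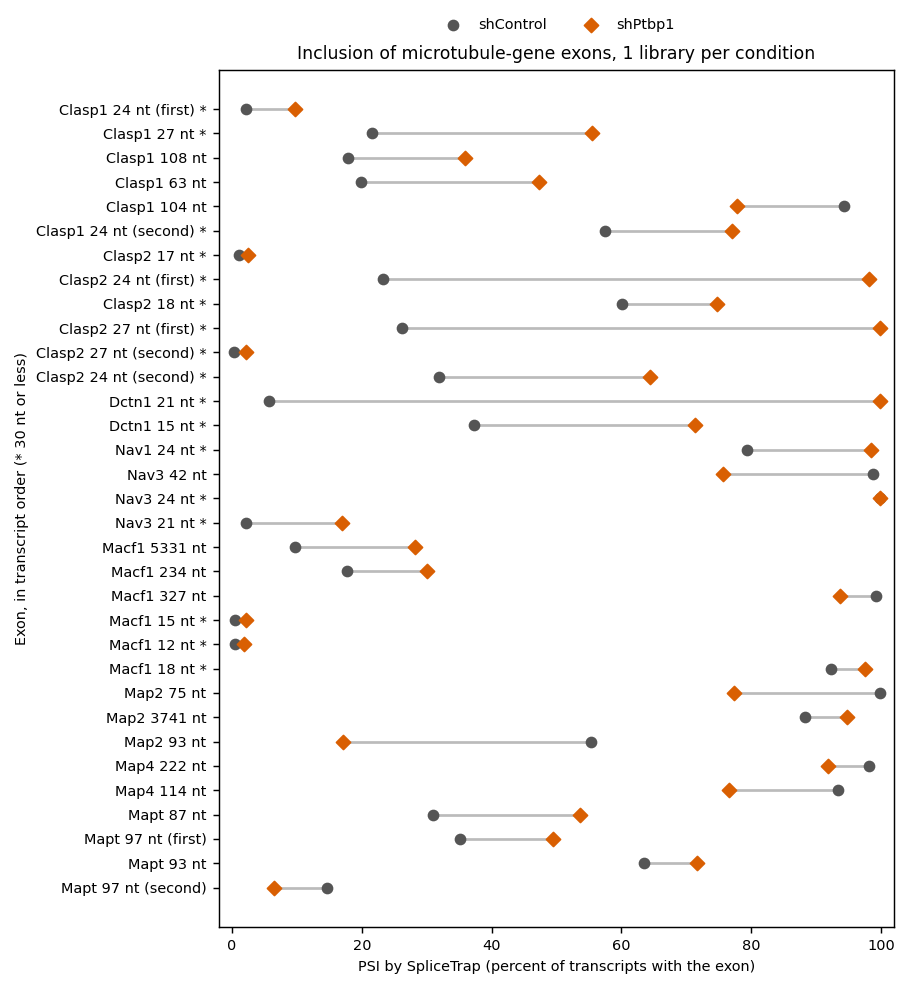
PSI by SpliceTrap, in percent, for the 33 exons that rose, fell or are 30 nucleotides or less, with shControl as circles and shPtbp1 as diamonds, in transcript order within each gene. The longest shift to the right is the 21-nucleotide exon of Dctn1, from 5.7 to 99.9, and the longest to the left is the 93-nucleotide exon of Map2, from 55.3 to 17.1.

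Clasp1 (chr1:120285635-120506009, plus strand) held 5 rises and 1 fall among 41 measured exons, and its 3 microexons all rose. The 27-nucleotide exon printed above had a PSI of 21.6 in the shControl library and 55.5 in the shPtbp1 library. Its reads entering the exon went from 26 to 79 while the reads skipping it went from 107 to 78, giving 19.5% and 50.3% inclusion and an interval of the difference of 19.96 to 40.45 points. Reads entering the exon were fewer than those skipping it in the shControl library and about as many in the shPtbp1 library. The second 24-nucleotide exon of Clasp1 (chr1:120438252-120438275) went from 57.4 to 77.0. Junction reads gave 53.0% and 69.3% for it, with an interval of the difference of 7.66 to 24.7 points, whereas the coverage of assembled transcripts gave 67.35% and 49.65%, the opposite direction. The first 24-nucleotide exon (chr1:120409282-120409305) stayed rare, at 2.2 and 9.7, with 7 and 17 reads entering it. It is the one Clasp1 microexon outside annotated coding sequence.

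Of the longer variable exons of Clasp1, 2 rose, 1 fell and that of 48 nucleotides was at 7.5 and 7.2. The 63-nucleotide exon (chr1:120432712-120432774) had a PSI of 19.9 and 47.3, and junction reads gave a difference of 16.3 to 30.4 points. Its sides disagree in the shPtbp1 library, where 42 reads entered it and 89 left it, against 37 and 36 in the shControl library. The side used therefore differed between the libraries. The 108-nucleotide exon (chr1:120428555-120428662) had 17.9 and 35.9, with an interval of 6.42 to 21.1 points. That interval uses the 68 and 88 reads entering it, while 40 and 36 left it. The database holds no junction from the 108-nucleotide exon to the 63-nucleotide exon, so any reads joining them were not counted on either. Whether such reads account for the uneven sides was not tested. All 5 Clasp1 exons that rose have a length divisible by 3, whereas the exon that fell does not. The single Clasp1 fall, of the 104-nucleotide exon (chr1:120435843-120435946) from 94.3 to 77.8, had no counterpart of that size on its junctions, on which inclusion was 96.2% and 94.4% (interval of the difference -5.75 to 1.79 points).

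Clasp2 (chr9:113650591-113828815, plus strand) has 6 measured microexons, more than any other gene of the list, and 4 rose by SpliceTrap. The interval of junction inclusion lay above 0 for 1 of these 4. The first 24-nucleotide and the 18-nucleotide exons, also among the 4, could not be assessed by junction inclusion, for the reason given below. The second 24-nucleotide exon (chr9:113787868-113787891) had a PSI of 31.9 in the shControl library and 64.4 in the shPtbp1 library. Reads entering it went from 94 to 205 and reads skipping it from 195 to 109, so that junction inclusion was 32.5% and 65.3% and the interval of the difference 25.0 to 40.0 points. SpliceTrap and junction values differed for it by less than 1 point in each library.

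The first 24-nucleotide exon of Clasp2 (chr9:113767699-113767722) has no usable junction inclusion. SpliceTrap placed it at 23.3 and 98.1, a delta PSI of 74.8. The trio behind that value takes the adjacent 18-nucleotide exon as its downstream neighbour and had 3 skipping reads in the shControl library and 1 in the shPtbp1 library. On all database junctions, 21 and 55 reads entered the exon. Its upstream neighbour received 157 and 159 reads, of which 24 and 56 left again on database junctions, and no database junction skips both this exon and the 18-nucleotide exon after it. The reads that skip both were therefore not counted, and no junction inclusion is given for either exon.

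The remaining Clasp2 microexons gave values that rest on few inclusion reads. The first 27-nucleotide exon (chr9:113771554-113771580) was placed at 26.2 and 99.9 on 24 trio reads in each library, yet 183 and 196 reads spanned it and 10 and 12 entered it, so that its junction inclusion was 5.18% and 5.77%. The 18-nucleotide exon (chr9:113769238-113769255) had a PSI of 60.1 and 74.7, on 47 and 73 trio reads, with 18 and 30 reads entering it. The other 2 Clasp2 microexons, of 17 nucleotides and 27 nucleotides, had PSI values of 1.0 and 2.5 and of 0.3 and 2.2.

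**Figure D3:**
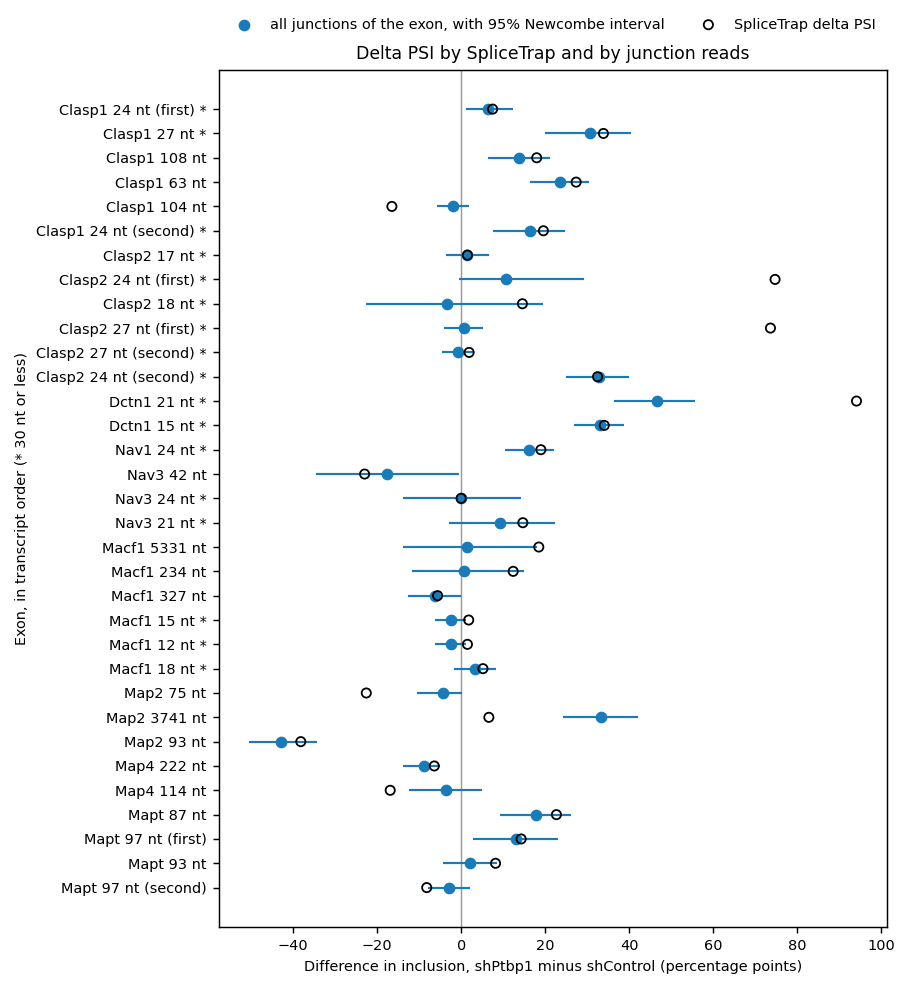
Difference in inclusion between the shPtbp1 and shControl libraries, in percentage points, for the same 33 exons, with SpliceTrap delta PSI as open circles and the junction measure as filled circles with 95% Newcombe intervals. The filled circles of the first 24-nucleotide and the 18-nucleotide exons of Clasp2 lack the reads that skip both and are not read, the open circle lies far from the filled circle for the first 27-nucleotide exon of Clasp2 (73.7 points by SpliceTrap), and the 2 nearly coincide for the second 24-nucleotide exon of Clasp2 and the 15-nucleotide exon of Dctn1.

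Dctn1 (chr6:83115914-83150111, plus strand) showed the largest rise of the list by both measures, and 26 of its 28 measured exons were above a PSI of 95 in both libraries. The 15-nucleotide exon had a PSI of 37.3 in the shControl library and 71.4 in the shPtbp1 library. A total of 145 reads entered it against 275 spanning it in the shControl library, and 373 against 179 in the shPtbp1 library. Junction inclusion was thus 34.5% and 67.6%, with an interval of the difference of 26.9 to 38.8 points. The exon downstream of it had 317 and 243 reads on the side facing it, against 712 and 716 on its far side. These shares thus rest on part of the reads. The 21-nucleotide exon (chr6:83137758-83137778) went from 5.7 to 99.9 by SpliceTrap, on a trio whose upstream neighbour is another microexon. With the longer skipping junctions included, 15 and 72 reads left the exon and 141 and 56 spanned it. Its junction inclusion was 9.62% and 56.25%, with an interval of the difference of 36.3 to 55.7 points, a rise smaller than by SpliceTrap. The exon downstream of it had 156 and 128 reads on the side facing it and 612 and 620 on its far side, so these shares rest on part of the reads.

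The 21-nucleotide exon belongs to a run of 3 Dctn1 microexons, the others being of 21 nucleotides (chr6:83133930-83133950) and 18 nucleotides (chr6:83136422-83136439), neither of which reached 20 trio reads. The reads from the 18-nucleotide exon into the 21-nucleotide exon nevertheless went from 1 to 60, and the reads that skip all 3 went from 139 to 55. The RefSeq isoform that holds these 3 exons together with the 15-nucleotide exon had a mean depth of 63.0 reads per base in the shControl library and 277.5 in the shPtbp1 library, and the RefSeq isoform that lacks all 4 had 403.0 and 77.6. The transcripts with the 21-nucleotide exon made up 12.5% of the coverage of the locus in the shControl library and 69.0% in the shPtbp1 library.

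The navigators differed from one another. Nav1 (chr1:137331157-137584682, minus strand) had a 24-nucleotide exon with a PSI of 79.4 in the shControl library and 98.4 in the shPtbp1 library. Its skipping reads went from 36 to 3 while its better covered junction had 166 and 176 reads, giving 82.2% and 98.3% and an interval of 10.5 to 22.1 points. Nav3 (chr10:109119716-109437275, minus strand) holds a 24-nucleotide exon with a PSI of 99.9 and 99.9. It had 0 skipping reads against 23 and 24 on its better covered junction. Its downstream neighbour had 23 and 24 reads on the side facing it and 61 and 35 on its far side. These values thus rest on part of the reads and do not show full inclusion. The 21-nucleotide exon of Nav3 (chr10:109156122-109156142) had a PSI of 2.2 and 16.9, on 4 and 8 reads entering it, and the junction interval ran from -2.90 to 22.4 points. The 42-nucleotide exon of Nav3 (chr10:109197543-109197584) fell from 98.7 to 75.7, on 1 and 7 skipping reads, and the interval of its junction inclusion was -34.5 to -0.46 points. Median trio depth was 143 and 154 reads in Nav3 and 1292 and 1175 in Nav1, so Nav3 values rest on fewer reads. Nav2 (chr7:56501559-56865457, plus strand) was not detectable at this depth, with 0 and 1 junction reads.

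Macf1 (chr4:123026876-123361603, minus strand) was the member with the most measured exons, 97, of which 90 were above a PSI of 95 in both libraries. Its 18-nucleotide exon (chr4:123041300-123041317) had a PSI of 92.3 and 97.5, with 11 and 5 skipping reads against 160 and 153 on its better covered junction, and the junction interval of the difference was -1.64 to 8.32 points. Transcript coverage gave a wider difference for it, 49.05% and 82.56%. A 12-nucleotide exon and an overlapping 15-nucleotide form of it had a PSI of 2.2 or less in both libraries. The 327-nucleotide exon (chr4:123074337-123074663) fell from 99.2 to 93.6, and junction reads gave 91.6% and 85.3%, an interval of -12.8 to -0.14 points. The 234-nucleotide and 5331-nucleotide exons rose from 17.7 to 30.1 and from 9.7 to 28.2 by SpliceTrap, but at most 3 reads touched either splice site of each in any library, and their junction inclusion differed by less than 2 points.

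The 3 genes of structural proteins have no microexon, and their changes went both ways. In each, an exon of 93 nucleotides encodes a microtubule-binding repeat that can be left out, and those of Map2 and Map4 are printed in the format used above because the first fell and the second moved by less than 5 points.
Map2, 93-nucleotide exon, chr1:66478101-66478193, plus strand: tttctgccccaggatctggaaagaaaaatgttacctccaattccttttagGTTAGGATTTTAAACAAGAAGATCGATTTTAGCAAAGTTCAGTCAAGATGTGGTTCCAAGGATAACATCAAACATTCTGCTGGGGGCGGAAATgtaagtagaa
Map4, 93-nucleotide exon, chr9:109975117-109975209, plus strand: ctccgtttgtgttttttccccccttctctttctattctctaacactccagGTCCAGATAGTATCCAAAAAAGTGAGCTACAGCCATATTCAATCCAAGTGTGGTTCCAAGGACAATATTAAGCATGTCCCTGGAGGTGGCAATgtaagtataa

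Map2 (chr1:66221847-66489157, plus strand) had its 93-nucleotide repeat exon at a PSI of 55.3 in the shControl library and 17.1 in the shPtbp1 library. The reads skipping it went from 88 to 163, those entering it from 107 to 48 and those leaving it from 168 to 42. Junction inclusion was 65.6% and 22.75%, with an interval of the difference of -50.4 to -34.3 points, and the share of transcript coverage that holds the exon was 53.5% and 17.5%. This was the largest fall of the list by SpliceTrap and by junction inclusion. The corresponding exon of Mapt, the tau gene (chr11:104092704-104193404, plus strand), had a PSI of 63.5 and 71.7. Its junction inclusion was 71.7% and 73.9%, with an interval of -4.36 to 8.56 points, so the libraries are not separable by that measure. The Map4 exon had a PSI of 73.6 and 75.6.

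Map2 also contains a 3741-nucleotide exon (chr1:66458981-66462721) that is present in its high-molecular-weight forms. SpliceTrap gave 88.2 and 94.8, but on a trio with 2 and 3 skipping reads. Over all database junctions, 125 and 87 reads spanned the exon, 7 and 55 left it and 6 and 12 entered it, so that its junction inclusion was 5.30% and 38.7% (interval of the difference 24.2 to 42.1 points) when the better covered side is used. The 2 sides disagree in the shPtbp1 library, 12 reads against 55, and the trio reads on the exon went from 539 to 1856. The 75-nucleotide Map2 exon (chr1:66448021-66448095) was placed at 99.9 and 77.3 on 0 and 1 skipping reads. It shares its end with a form that starts at 66448018. That form was entered by 70 and 49 reads and the 75-nucleotide form by 11 and 9. Junction inclusion, taken at the shared end and so for both forms together, was 99.2% and 94.9%.

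In Mapt, the first of the N-terminal insert exons, of 87 nucleotides (chr11:104148437-104148523), had a PSI of 30.9 and 53.6. The reads that skip it went from 248 to 100 and those entering it from 108 to 93, giving 30.3% and 48.2% and an interval of 9.31 to 26.2 points. Reads into the exon before it also went down, from 302 to 132. The second trio of this exon, with the next 87-nucleotide insert exon as its neighbour, gave 95.5 and 96.7, and transcript coverage gave 34.6% and 33.1%. The first 97-nucleotide exon (chr11:104166627-104166723) had a PSI of 35.1 and 49.4, and its junction interval was 2.88 to 22.98 points. That interval uses the 78 and 103 reads leaving it, while 17 and 34 entered it. In the shControl library its upstream neighbour had 113 reads on the side facing it and 248 on its far side. The second 97-nucleotide exon (chr11:104182377-104182473), not annotated as coding, went from 14.6 to 6.4 on 12 and 6 reads leaving it. The 66-nucleotide exon that follows the inserts had 72.5 and 71.3.

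Map4 (chr9:109833962-109986451, plus strand) had 2 falls and no rise among its measured middle exons. A further difference lay outside them. The junction from 109902344 into an exon at 109905250 had 17 and 145 reads. From the same splice site to 109928605 there were 268 and 149. The database holds no junction leaving the exon at 109905250, so it has no PSI here. The 222-nucleotide exon (chr9:109966732-109966953) went from 98.2 to 91.8, with 15 and 29 skipping reads and a junction interval of -13.8 to -4.94 points. The 114-nucleotide exon (chr9:109973530-109973643) went from 93.4 to 76.5 by SpliceTrap. The larger junction of its trio gave an interval of -22.7 to -7.11 points, and transcript coverage gave 74.9% and 59.0%. Over all database junctions its inclusion was 63.4% and 59.8% with an interval of -12.3 to 5.01 points. A total of 119 and 76 reads spanned it, 12 and 26 of them on the junction of its trio.

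The paralogous genes allow exons of equal length to be set side by side. Clasp1 and Clasp2 share a run of exons of equal length, and the second 24-nucleotide exons, identical at 17 of 24 bases, rose in both genes (57.4 to 77.0 and 31.9 to 64.4). The 27-nucleotide exons, identical at 19 of 27 bases, differed, being at 21.6 and 55.5 in Clasp1 but 0.3 and 2.2 in Clasp2. The Clasp2 trio had 1 skipping read in each library, and junction inclusion of that exon was 3.2% and 2.5%. The 63-nucleotide exons (66.7% identical) were at 19.9 and 47.3 in Clasp1 and at 1.8 and 5.4 in Clasp2, and the 108-nucleotide exons (71.3% identical) at 17.9 and 35.9 and at 99.9 in both libraries. The 24-nucleotide exons of Nav1 and Nav3, identical at 17 of 24 bases, were at 79.4 and 98.4 and at 99.9 in both libraries. The 93-nucleotide exons of Map2 and Mapt had delta PSI values of -38.2 and 8.2 points. The junction interval of the Map2 exon lay below 0, but that of the Mapt exon was -4.36 to 8.56 points. A difference in direction between the 2 exons is therefore not read.

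**Figure D4:**
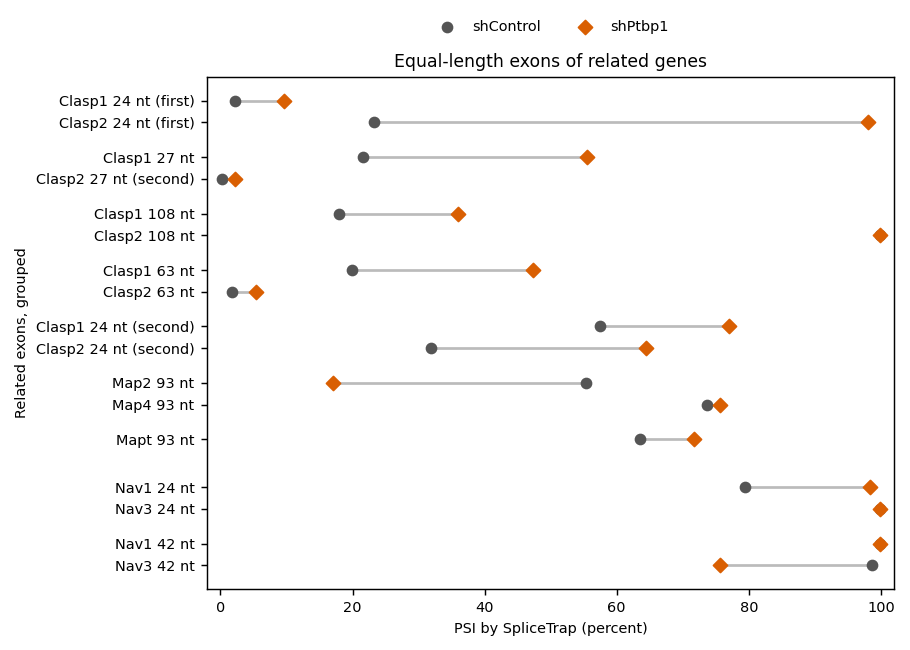
PSI by SpliceTrap, in percent, of equal-length exons in related genes, with shControl as circles, shPtbp1 as diamonds and related exons next to each other, for pairs in which either exon moved by 5 points or more. The second 24-nucleotide exons of Clasp1 and Clasp2 both lie further right in the shPtbp1 library, whereas the 93-nucleotide exon of Map2 moves to the left, from 55.3 to 17.1, and that of Mapt to the right, from 63.5 to 71.7. Junction inclusion of the Mapt exon did not separate the libraries.

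The sequence just upstream of the exons was described on the transcribed strand only. In the 100 nucleotides upstream of the 12 microexons that rose, the median share of C and T was 63.5%, against 55.0% for all measured exons and 59.0% for all microexons, and 64.0% for all microexons that rose. The share of overlapping triplets made of C and T alone was 31.6% in the 12, 21.4% in all exons, 24.5% in all microexons and 31.6% in all microexons that rose. The hexamer CTCTCT lay upstream of 4 of the 12 (33.3%), namely the second 24-nucleotide exon of Clasp2, both Dctn1 exons and the Nav1 exon, and of 9.83% of all exons, 16.9% of all microexons and 45 of the 196 microexons that rose and have an upstream intron of 100 nucleotides or more. The tetramer TCTT, whose matches can overlap those of CTCTCT, was found upstream of 9 of the 12 (75.0%), of 65.0% of all exons, 77.2% of all microexons and 81.1% of all microexons that rose. In the 30 nucleotides just upstream of the exon, TGC was found for 9 of the 12 (75.0%), for 42.7% of all exons, 47.9% of all microexons and 66.8% of all microexons that rose.

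Among the 33 exons plotted, the most pyrimidine-rich upstream sequence belonged to one that fell. The 114-nucleotide exon of Map4 had 54.1% of such triplets, higher than 99.5% of all measured exons, and the 93-nucleotide exon of Map2 had 37.8%, higher than 95.2%. The 15-nucleotide exon of Dctn1 and the 24-nucleotide exon of Nav1 each had 43.9%, higher than 98.2%. The 27-nucleotide exons of Clasp1 and Clasp2 had 24.5% and 34.7%, in the opposite order to their delta PSI values of 33.9 and 1.9 points. The Clasp2 delta PSI rests on a trio with 1 skipping read in each library. The 8 falls as a group had a median of 24.0%, beside 21.4% for all measured exons. None of the 8 had CTCTCT in the 100 nucleotides, beside 9.83% of all exons, and with so few exons this is not read as a difference.

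Expression was measured in 3 ways, which differed for several of the genes. Bulk RNA cannot tell fewer expressing cells from less RNA per cell. Junction reads of each gene, scaled to the library's total of junction reads, are the measure that does not depend on how transcripts were assembled. By this measure none of the 9 genes that reached 100 junction reads in both libraries was higher or lower by 1.5-fold, against 13.6% of 9841 genes higher and 1.22% lower. Their log2 ratios ran from -0.53 for Map4 (5943 and 3221 reads) to 0.30 for Nav3 (1476 and 1420) and Dctn1 (15577 and 14979), with a median of 0.22 beside 0.15 over all genes, and relative to that all-gene median 1 gene, Map4, was lower by more than 1.5-fold (log2 ratio -0.68). The Map4 junctions did not all move alike. The junction into its exon at 109902276 had 329 and 292 reads, and that into its exon at 109930183, further downstream, had 340 and 165. Its sum thus joins parts of the gene that moved differently, and is not read as a change of the whole gene. Clasp1 had 8893 and 6771 reads, Clasp2 9753 and 8923, Nav1 9251 and 8452, Macf1 10922 and 10482, Map2 2454 and 1974 and Mapt 2893 and 2202. Nav2 had 0 and 1. Within Mapt, too, the junctions moved differently. The junction into its exon at 104143682 had 302 and 132 reads, and that into its exon at 104171583, further downstream, had 194 and 201. The Mapt sum is therefore not read as showing that the whole gene was unchanged.

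From the RefSeq isoforms alone, 6 of the genes reached 100 reads in both libraries, and 2 of these 6 were higher by 1.5-fold or more, against 18.3% of 10031 genes, and none was lower, against 10.8%. The 2 were Clasp2, with 13.9 and 122.3 RPM (log2 ratio 3.14), and Mapt, with 55.0 and 94.5 (0.78). For both, assembled transcripts outside RefSeq held much of the shControl coverage. Clasp2 coverage over all isoforms of the locus was 115.2 and 126.6 RPM (0.14), and that of Mapt was 102.1 and 102.5 (0.01). The assembly thus differed between the libraries for these 2 genes, and their RefSeq ratios are not read as expression changes. Map4 was listed at 68.9 and 0 RPM on its RefSeq isoform and at 82.8 and 105.5 over all isoforms, opposite in direction to its junction reads.

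**Figure D5:**
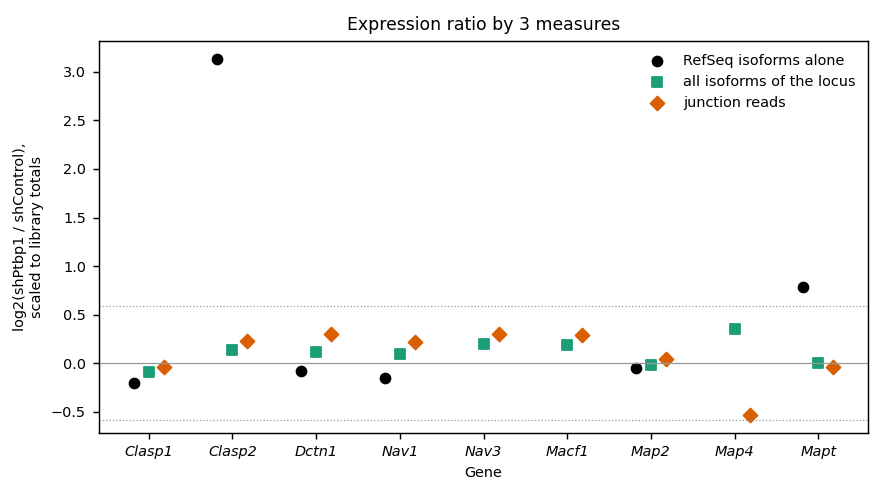
log2 ratio of expression, shPtbp1 over shControl, for 9 genes by 3 measures scaled to library totals, with dotted lines at 1.5-fold. RefSeq isoforms alone (circles, shown for the 6 genes that reached 100 reads in both libraries) put Clasp2 at 3.14, while all isoforms (squares) and junction reads (diamonds) put each gene between the dotted lines.

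Other microtubule genes were measured in the same way. In a list of 81 genes of structural proteins, plus-end trackers, dynein and dynactin, stathmins, severing enzymes, kinesins and tubulins, 72 had measured exons, and 28 of 68 variable exons rose (41.2%, beside 27.0% of all variable exons) and 13 fell (19.1%, beside 28.1%). Of 14 microexons in that list, 4 rose (28.6%, beside 20.5% of all microexons) and 0 fell. These counts come from the same contrast and were not tested against those of the 10 genes. The largest rise was the 72-nucleotide exon of Dst, the spectraplakin paralog of Macf1, from 15.5 to 65.5, with 103 and 508 reads on its better covered junction and 570 and 248 skipping it. The 327-nucleotide exon of Dst went from 82.0 to 61.0 and its 111-nucleotide exon from 89.0 to 61.2, so that the 327-nucleotide exons of Dst and Macf1 both fell. Kif2a, a microtubule-depolymerising kinesin, had a 114-nucleotide exon at 6.0 and 50.1, and Dync1i2, a dynein intermediate chain, a 60-nucleotide exon at 15.7 and 55.0.

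Genes that act beside the members also moved. Ckap5, the plus-end polymerase XMAP215, had a 24-nucleotide exon at 21.6 and 53.7, Dctn4, a dynactin subunit beside Dctn1, a 21-nucleotide exon at 43.2 and 71.1, and Clip2, a plus-end tracker, a 105-nucleotide exon at 30.8 and 59.7. For these 3 the interval of the difference from the better covered trio junction lay between 15.7 and 45.5 points. The remaining exons past 20 points were 1 of 105 nucleotides in Clip1 (19.4 and 45.8) and 1 of 184 in Kif2c (10.6 and 31.9), which rose, and 1 of 33 in Clip1 (40.5 and 11.0) and 1 of 131 in Klc1 (36.2 and 12.3), which fell. Junction intervals of Clip1's 105-nucleotide exon, Kif2c and Klc1 each included 0.

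In expression, 67 of those genes reached 100 RefSeq reads in both libraries, and 11 were higher (16.4%) and 10 lower (14.9%) by 1.5-fold, beside 18.3% and 10.8% of all genes. By junction reads 11 of 71 were higher (15.5%) and 0 lower, beside 13.6% and 1.22%. Large RefSeq rises were those of Actr10 (log2 ratio 2.03), Kif3b (1.68), Klc1 (1.49) and Kif5a (1.46). Of these, Kif5a and Klc1 were also higher by more than 1.5-fold in junction reads (log2 ratios 1.49 and 1.00), and the other 2 were not. The 5 largest falls were Apc (-3.59), Kif1b (-3.12), Actr1a (-1.66), Tuba1b (-0.89) and Nde1 (-0.88), and their junction-read log2 ratios lay between -0.32 and 0.29. Kif5a, a neuronal kinesin heavy chain, had 7103 and 15597 junction reads.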

How the data were processed

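Paired reads of 100 bases from 1 library per condition were used as the authors had processed them. The submitters' processing notes name CASAVA, TopHat, Cufflinks and the mm9 build, and their versions are not given in the sources used here. For every SpliceTrap exon trio the deposited values were the inclusion ratio (a fraction, raw and corrected), the count of reads on each junction and the coverage per 100 nucleotides. The authors deposited Cufflinks isoform FPKM, whose scale is unusual and which served here only for a ratio, and isoform coverage as mean depth per base. The deposited gene-level FPKM tables were not used.

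PSI was the corrected fraction as a percent, from the trio of each exon with the most reads, at a minimum of 20 reads in both libraries. Expression was the coverage of RefSeq isoforms times their length over 100, scaled to the library sum (189691286 and 154700239). RefSeq names came from a GRCm38.p6 gene table, by accession or by the only symbol of the locus, for 27077 of 27601 isoforms in the shControl library and 27080 of 27604 in the shPtbp1 library. Gene spans, exon coordinates (counted from 1) and coding status refer to NCBIM37 (mm9) with GENCODE annotation, where Map2 and Map4 are listed as Mtap2 and Mtap4. Wilson and Newcombe 95% intervals were tested on simulated data. The exons named were variable (in either library, PSI 5 to 95) with a delta PSI of 5 points or more in either direction, or were of 30 nucleotides or less. Of the other microtubule genes, the 5 largest rises and falls in expression past 1.5-fold and the exons past 20 points were named, except for an item not reported here. The members, the lists and these rules were chosen with earlier results of these data known. Inclusion over all database junctions, and counting overlapping exons once with at least 10 junction reads, were added after seeing the data. The other settings were minimums of 10 and 50 reads, the mean over trios, the uncorrected ratio, trio junction reads, cassette-class exons alone, a threshold of 10 points, FPKM, all isoforms, junction reads, a pseudocount of 1 RPM and a fold of 2. The versions used were matplotlib 3.10.9, SciPy 1.17.1, pandas 2.3.3, NumPy 2.4.6 and Python 3.11.15.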

Additional observations from a re-analysis of the deposited data

How the results depend on the processing

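The count of rises was 16 to 23 and the count of falls 6 to 10 under all other exon settings except that cassette-class exons alone gave 13 rises and 5 falls, and a threshold of 10 points gave 5 falls. The median delta PSI (order-statistic interval over the 36 exons -0.3 to 14.7) lay between 0.9, as the mean over all trios, and 7.1, and was 1.6 over all database junctions. Microexon rises numbered 8 to 12. Genes past 1.5-fold in expression numbered 2 from RefSeq isoforms, 1 by summed FPKM or at a fold of 2, 2 by FPKM over the library median, 0 from all isoforms or junction reads, and 4 of 10 with a pseudocount of 1 RPM. Of 153 alternative values for the 28 exons that rose or fell, 4 had the opposite sign, in 3 exons. Transcript coverage gave -17.7 points for the second 24-nucleotide exon of Clasp1 and -1.49 for the 87-nucleotide exon of Mapt, and the 18-nucleotide exon of Clasp2 gave -0.64 by its larger trio junction and -3.26 over all database junctions, which lack the junction that skips it together with the exon before it. Mapt expression was -0.04 (log2) by junction reads. The causes of these reversals were not tested. No paired analysis was possible because each condition has 1 library.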
